A study of Arabidopsis thaliana with 22 samples.

Results

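The probe sets described here were highest 1 h into a sampled day in leaves of Arabidopsis thaliana, in each of 2 replicate series. They numbered 90 of the 22746 non-control probe sets of the array, and of the 10482 whose mean intensity over all arrays was at least 50. Within each series the intensity was taken as log2(intensity + 4) and the 0 h and 24 h values were averaged. A probe set was taken when its highest and lowest hour differed by at least 1.5 on this log2 scale and the highest hour was 1 h, in both series. The members were thus chosen by their levels over the hours, and everything said about them over the hours is a description without a test. The annotation gave 1 gene for 48 members, several genes for 1, and the remaining 41 are unnamed here and given by probe set.

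The study followed diurnal gene expression and carbohydrate metabolism on Affymetrix ATH1 arrays. Leaves of wild-type Col-0 plants at growth stage 3.90, grown on compost at 20 °C with 12 h of light and 12 h of dark, were collected at 0, 1, 2, 4, 8, 12, 13, 14, 16, 20 and 24 h. Each of the 22 arrays held RNA of 20 pooled plants, and every hour had 2 biological replicates, called series 1 and series 2 here. No treatment or mutant was included, so all groups share genotype, tissue, stage and light cycle and differ in the hour. Whether 0 h began the light or the dark is not spelled out by the labels. For the arrays called 8 h and 16 h another label reads 5 h and 14 h. Whole leaves mix many cell types, so fewer cells of a type and less RNA per cell cannot be told apart.

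Leaves in a light and dark cycle adjust their transcripts through light receptors, through sugar supply and through the circadian clock, a set of mutually repressing transcription factors. Early response genes, many of which encode calcium-binding proteins, kinases and transcription factors, have short-lived transcripts whose level can change within an hour. Growth genes such as EXO and the clock and cold gene COR27 are known for daily rhythms in leaves.

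The 2 arrays of an hour correlated with r between 0.935 and 0.962 across the probe sets kept, which are not independent replicates. Median intensity per array ran from 37.6 to 44.7. The 1 h arrays stood apart in an RNA quality measure. The actin probe sets gave a 3' to 5' ratio of 2.52 at 1 h in series 1, against 1.56 to 2.03 on the other arrays of that series. In series 2 it was 6.31, against 2.35 to 4.15. Another actin ratio on the array was 5.94 at 1 h in series 1 (2.72 to 4.80 on the others) and 10.2 in series 2 (3.67 to 9.72, the 24 h array being nearly level with 1 h). The same ratio for GAPDH at 1 h was 1.70 in series 1, exceeded there by the 2 h array with 1.81, and 3.92 in series 2, the highest of that series. Scanner background at 1 h was 80.6 in series 1 (66.6 to 73.4 on the others) and 82.5 in series 2 (63.2 to 109). Every level at 1 h given here comes from these 2 arrays, and the part of their RNA quality in the result was not tested. Of the cell type markers only RCA, the mesophyll gene of rubisco activase, had a named probe set, with 2648 and 2961 at 1 h and 2999 to 5108 at 16 h. The lists of guard cell, epidermis, phloem companion cell, root hair and flower markers held no named probe set.

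**Figure D1:**
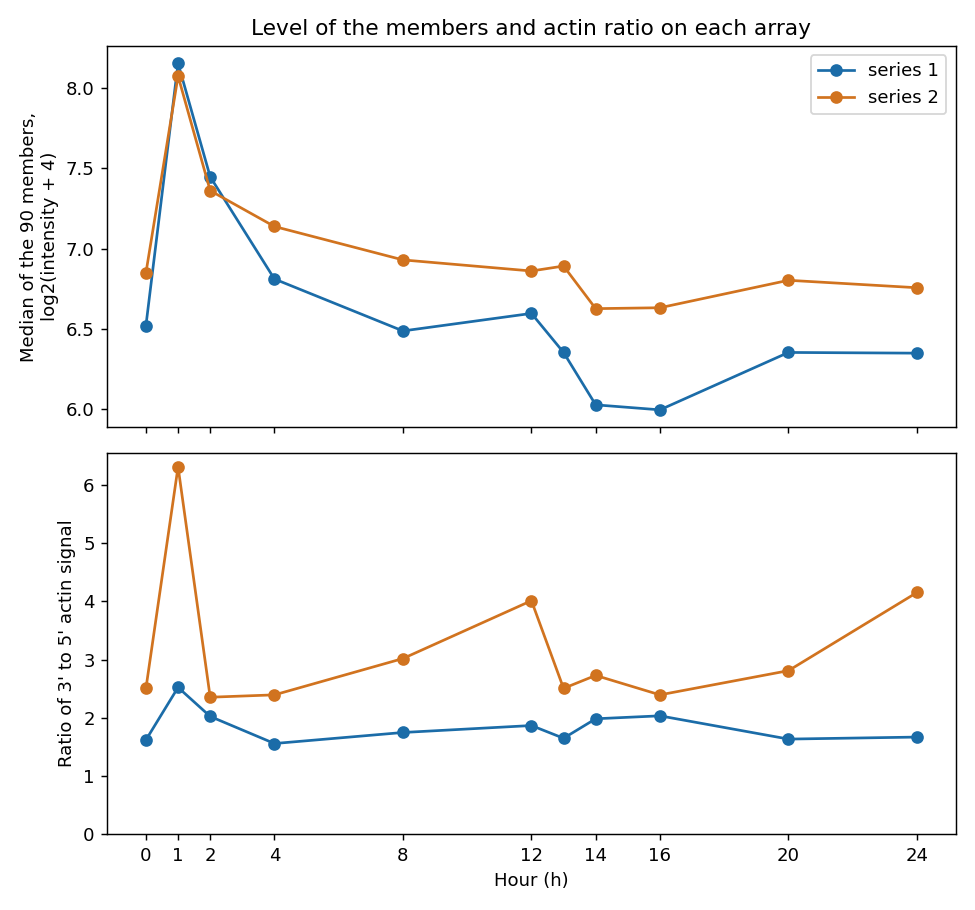
The upper plot gives the median of the 90 members as log2(intensity + 4) on each of the 22 arrays by hour, the lower one the 3' to 5' actin ratio on the same arrays. Lines join arrays of a replicate series. Both measures were highest at 1 h in both series, with medians of 8.15 and 8.07 and actin ratios of 2.52 and 6.31.

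The members made up 90 of the 822 probe sets that varied by at least 1.5 in both series and had the same highest hour in both. Within those 822, 50 were highest at the mean of 0 and 24 h, 17 at 2 h, 8 at 4 h, 27 at 8 h, 131 at 12 h, 153 at 13 h, 98 at 14 h, 62 at 16 h, while 20 h held 186. The hour after 0 h thus held more of them than each of the next 3 sampled hours, and fewer than 12 h, 13 h, 14 h and 20 h. Another 137 probe sets met the range but were highest at 1 h in a single series.

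The rule was also applied to each series alone, and the highest hour of the chosen probe sets was read in the other series. Of 282 probe sets that met the rule in series 1 alone, 143 (50.7%) were also highest at 1 h in series 2. Among the 1988 that varied as much in series 1 but were highest at another hour, 96 (4.83%) were highest at 1 h in series 2. In the other direction 109 of 168 (64.9%) were highest at 1 h in series 1, against 123 of 1663 (7.40%). The 143 and the 109 each hold the 90 members, whose 1 h maximum in both series was fixed by the rule. Nothing is therefore read from these shares about the members. The arrays of an hour share their label and, at 1 h, the high actin ratio in both series.

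Mean intensity at 1 h ran from 74.6 to 1183 with a median of 276. The mean at 1 h was 1.04 to 39.3 times the mean of 0 and 24 h, with a median of 2.74. At least 2-fold more at 1 h than at 0 and 24 h in both series was found for 57 members (63.3%), beside 2.4% of all 10482 probe sets. The rule used this contrast, so nothing is read from the difference between these shares. In the sample taken at 2 h the members stood at 6.34% to 92.7% of their 1 h mean, with a median of 67.4%. Only 12 members (13.3%, beside 0.477% of all) were already lower at 2 h by at least 2-fold in both series, and 2 h was the second highest hour for 46. Over the rest of the day the median member was lower than at 1 h by 1.10 on the log2 scale at 4 h, 1.33 at 12 h, 1.45 at 13 h, and by 1.75 at 14 h. The lowest hour was 14 h for 20 members, 20 h for 17, 16 h for 15 and 13 h for 13.

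**Figure D2:**
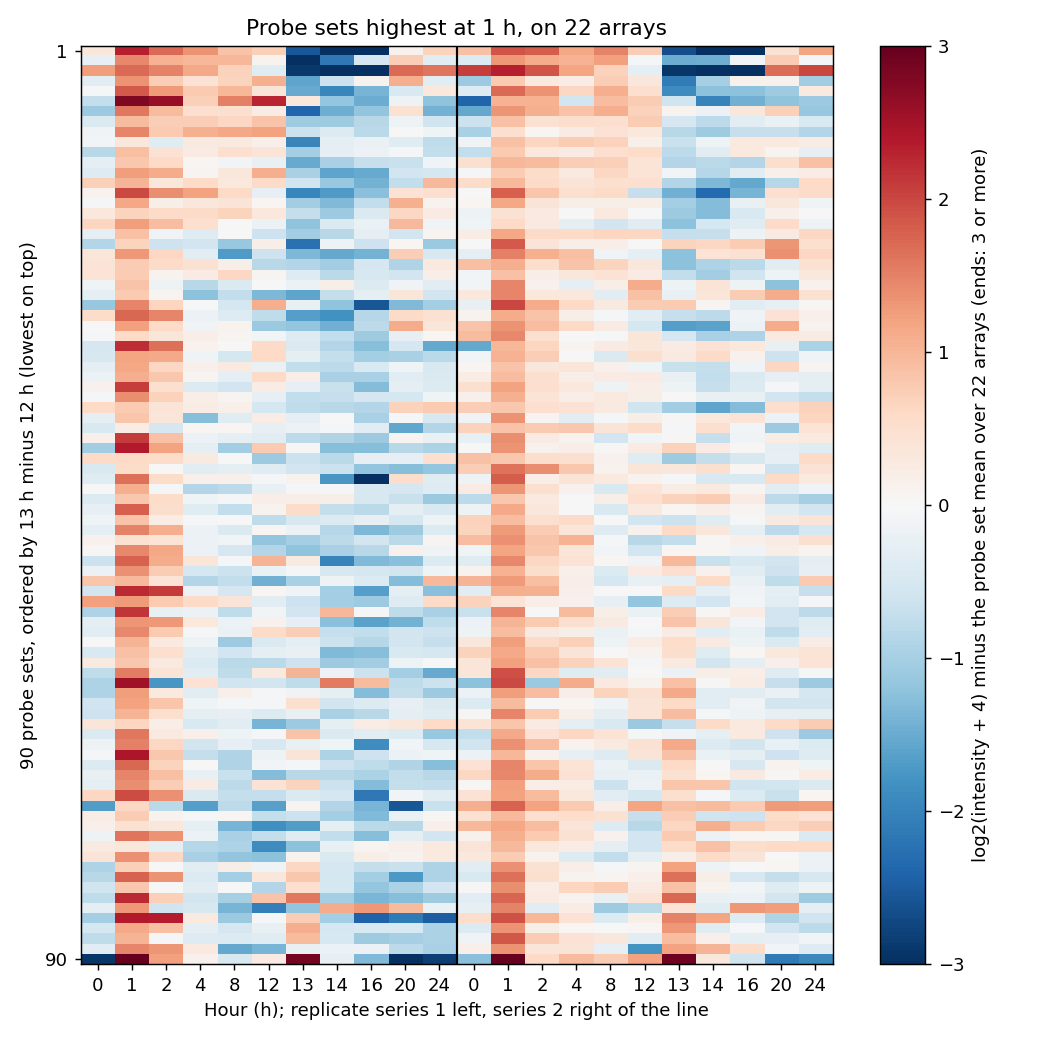
Each row is 1 of the 90 members and each column an array, by hour (h), with series 1 on the left and series 2 on the right. Colour gives log2(intensity + 4) minus the mean of the row, from blue (low) to red (high), with 3 or more in either direction in the end colours. Rows are ordered by the difference between 13 h and 12 h, and the 1 h columns are red in nearly all rows while 13 h runs from blue at the top to red at the bottom.

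How sharply 1 h stood out differed widely among the members. For 13 of them no other hour came within 2-fold of 1 h in both series, for 33 a single hour did, and for 4 members 6 or more of the other 9 hours did. The median lead over the next highest hour was 0.40 on the log2 scale in series 1 and 0.32 in series 2. The smallest leads were 0.00099 for 263669_at in series 1 and 0.0023 for AT3G57450 in series 2, where 1 h and the next hour were level. In 3 members, CHL, 247651_at and 261167_at, a single 0 h or 24 h array exceeded the 1 h array of its series, and 1 h was highest only against their mean. Just inside the range threshold lay AT3G59080 and 254256_at, with a smaller range of 1.5025 and 1.5035, AT3G25600 with 1.51, 259560_at with 1.53 and 256528_at with 1.55. Just outside lay AT3G56880 with 1.497 and, with 1.49 each, 261485_at and 260303_at, then AT2G39650 with 1.48 and AT3G09830 with 1.47.

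Among the growth and cell wall genes, EXO (AT4G08950, probe set 255064_at) had ranges of 6.57 in series 1 and 5.12 in series 2, the largest mean range of all members. COR27 had 5.37 and 6.15, and the lowest values of both genes lay below the highest bacterial control, so their order rests on values at background. EXO encodes EXORDIUM, an extracellular protein that promotes leaf cell expansion. Its intensities, with series 1 first and series 2 second in every pair of values here, were 11.1 and 43.7 at 0 h, 915 and 908 at 1 h, 265 and 169 at 2 h, 120 and 216 at 4 h, 77.7 and 190 at 8 h, then 132 and 259 at 12 h. At 13 h they were 827 and 859, then 91.4 and 139 at 14 h, 41.2 and 71.7 at 16 h, 5.7 and 22.2 at 20 h, then 12.2 and 25.8 at 24 h. EXO thus stood high on 4 arrays, the pair at 1 h and the pair at 13 h, and none of the other 18 arrays overlapped with them. At 1 h it was 39.3 times its mean at 0 and 24 h, 2 h held 23.8% of that level, and from 12 h to 13 h the log2 difference was 2.61 and 1.72. Its values at 0, 20 and 24 h lay partly below 29.2, the highest intensity of the 27 bacterial control probe sets, whose median was 2.00.

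The pectin methylesterase ATPMEPCRB (AT4G02330, 255524_at), an enzyme that removes methyl groups from cell wall pectin, had 289 and 265 at 1 h. It had 81.0 and 114 at 0 h, 36.2 and 26.5 at 12 h, then 87.0 and 241 at 13 h. The 13 h values exceeded those at 12 h in both series, by 1.18 and 3.00 on the log2 scale, but in series 1 remained far below 1 h. The 12 h array of series 2, at 26.5, lay below the highest bacterial control, so the 3.00 is measured from background. TET8 (AT2G23810), a tetraspanin of the plasma membrane and of secreted vesicles, had 1326 and 929 at 1 h, 381 and 440 at 0 h, 728 and 465 at 12 h, then 819 and 581 at 13 h. CSLA03, a cellulose synthase-like protein of the family that makes glucomannan, had 104 and 104 at 1 h, against 42.6 and 31.5 at 0 h. For CSLA03, 6 of the other hours lay within 2-fold of 1 h in both series. AT2G35880, a protein of the TPX2 family of microtubule proteins, had 204 and 277 at 1 h, then 52.1 and 77.1 at 14 h. All 5 members of this group were higher at 13 h than at 12 h in both series (27.8% of all probe sets), EXO and ATPMEPCRB by at least 2-fold and the other 3 by 0.02 to 0.33 on the log2 scale.

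The cold and clock regulator COR27 (AT5G42900, 249174_at) had a different course. COR27 encodes a small protein that represses clock genes and limits freezing tolerance. Its intensities were 157 and 280 at 0 h, 216 and 338 at 1 h, 186 and 246 at 2 h, 145 and 149 at 4 h, 105 and 106 at 8 h, then 48.9 and 51.8 at 12 h. At 13 h it had 5.1 and 4.9, at 14 h 1.3 and 0.8, and at 16 h 1.4 and 0.9, all below the highest bacterial control. At 20 h it stood again at 215 and 212 and at 24 h at 202 and 267. In series 1 the 20 h array lay 0.0072 on the log2 scale below the 1 h array, so the maximum of COR27 was a broad one from 20 h to 2 h. The unnamed 245668_at had a similar low stretch, with 248 and 180 at 1 h, 4.5 and 3.9 at 13 h, 1.4 and 1.6 at 14 h, then 1.7 and 2.2 at 16 h. COR28, the close relative of COR27 and no member, had 134 and 174 at 1 h but was highest at 20 h with 162 and 246. GI, an evening gene of the clock, was at least 2-fold lower at 1 h than at 0 and 24 h in both series, with 166 and 207 at 1 h, against 400 and 477 at 0 h.

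The transcription factors numbered 6. AT5G61590 (247540_at), known as DEWAX, is an ethylene response factor that represses wax synthesis genes. Its intensity was 197 and 143 at 0 h, 1289 and 1076 at 1 h, 824 and 897 at 2 h, 600 and 767 at 4 h, 597 and 907 at 8 h, then 495 and 688 at 12 h. At 13 h the 2 series parted, with 78.8 in series 1 and 455 in series 2, and at 20 h they had 583 and 701 before 158 and 190 at 24 h. The 1 h mean was 6.88 times that at 0 and 24 h, and apart from the series 1 arrays at 13, 14 and 16 h every other array lay above the 4 arrays of 0 and 24 h.

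AT5G08520 (250524_at), a MYB-related transcription factor, had 251 and 226 at 1 h, 183 and 216 at 8 h, 96.6 and 87.5 at 12 h, then 1.9 and 29.2 at 13 h. In series 1 it thus went from clear signal at 12 h to the level of the bacterial controls at 13 h. In series 2 it went only to the highest value of these controls, 29.2. The log2 difference from 12 h to 13 h was -4.09 and -1.46, and the values at 20 h were 151 and 155. AT1G25550, a GARP-type factor of the nitrate response, had 478 and 244 at 1 h, 399 and 211 at 12 h, then 107 and 93.7 at 13 h. AT5G46710, a PLATZ zinc-binding factor, had 170 and 106 at 1 h, then 27.7 and 27.4 at 13 h. Both 13 h arrays lay below both 1 h arrays for each of these 3 genes. WRKY53, a factor of leaf senescence and defence, had 172 and 202 at 1 h, 83.0 and 107 at 0 h, 36.7 and 74.9 at 8 h, then 67.3 and 124 at 13 h. AGL24, a MADS-box factor of flowering, was a flat member, with 57.1 and 92.1 at 1 h, 13.8 and 20.6 at 20 h, and 8 other hours within 2-fold of 1 h in both series.

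**Figure D3:**
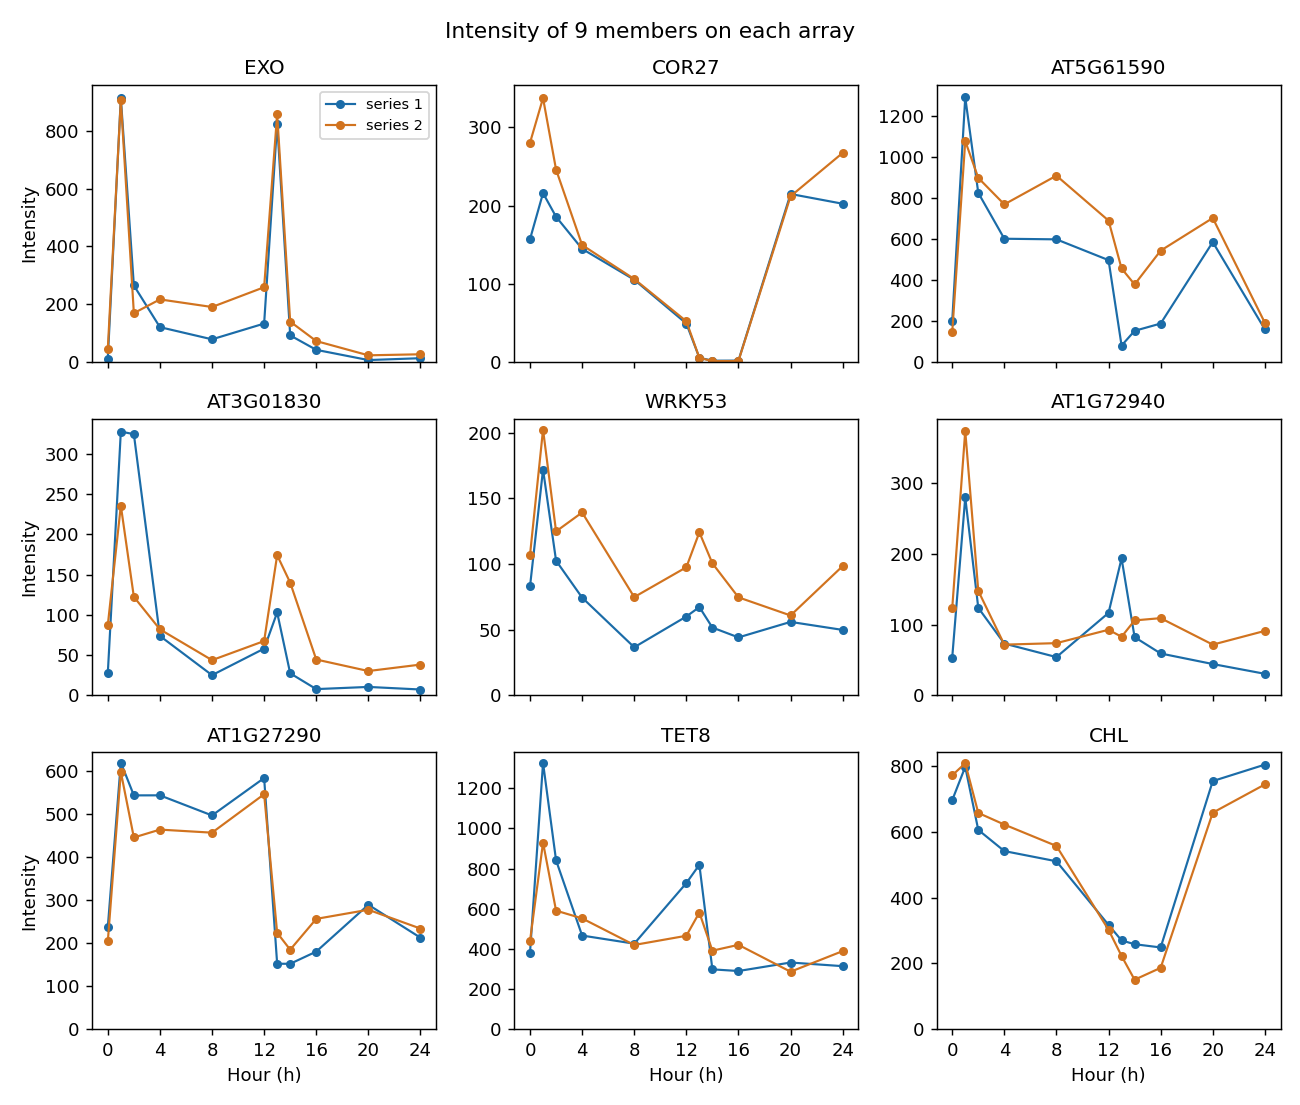
Intensity of 9 members on each array by hour (h), with a point per array and a line per replicate series, all axes starting at 0. EXO had a second maximum at 13 h (827 and 859), COR27 was near 0 from 13 to 16 h, and AT1G27290 went from 583 and 546 at 12 h to 152 and 224 at 13 h.

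Among 6 calcium and kinase genes, AT3G01830 (258947_at), a calmodulin-like calcium-binding protein, had the largest range. It had 27.6 and 87.3 at 0 h, 327 and 235 at 1 h, 324 and 122 at 2 h, 25.2 and 43.8 at 8 h, 58.1 and 67.5 at 12 h, 103 and 174 at 13 h, then 7.4 and 38.3 at 24 h. In series 1 the 2 h array nearly equalled the 1 h array, while in series 2 it was much lower. AT3G25600, also calmodulin-like, had 360 and 430 at 1 h, against 140 and 313 at 0 h. AT2G26190, a calmodulin-binding protein, had 566 and 664 at 1 h, then 257 and 372 at 2 h, and no other hour came within 2-fold of 1 h in both series. The protein kinases AT5G47070 and ATSIK had 269 and 213, and 133 and 107, at 1 h. AT5G59670, a leucine-rich repeat receptor kinase, differed from these in that 0 and 24 h were nearly as high as 1 h: 484 and 549 at 0 h, 535 and 667 at 1 h, 534 and 472 at 24 h, against 96.4 and 229 at 12 h. At least 2-fold more at 1 h than at 0 and 24 h in both series was found for 3 of the 6. The share was 63.3% of all members and 2.4% of all 10482 probe sets, and the rule used this contrast.

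All 4 members of immune receptor type were at least 2-fold higher at 1 h than at 0 and 24 h in both series. So were 63.3% of all members and 2.4% of all 10482 probe sets. The rule used this contrast, so nothing is read from the count. AT1G72940 (262383_at), with a TIR domain as in plant immune receptors, had 53.5 and 123 at 0 h, 280 and 374 at 1 h, 124 and 148 at 2 h, then 30.6 and 91.2 at 24 h. Its 13 h arrays disagreed, with 194 and 82.9, against 117 and 92.8 at 12 h. AT1G72900, another TIR-domain gene, had 389 and 326 at 1 h, then 184 and 209 at 2 h. Only 3 genes lie between AT1G72900 and AT1G72940 in the RefSeq gene order, and neither had another hour within 2-fold of 1 h in both series. AT1G61100, a TIR-domain gene elsewhere, had 204 and 323 at 1 h, 112 and 130 at 12 h, then 193 and 287 at 13 h. AT2G15042, a leucine-rich repeat protein, had 95.9 and 156 at 1 h, then 70.6 and 122 at 20 h. A second close pair was AT2G36410 and AT2G36430, with 1 gene between them. Among the 47 members placed in gene order these were the 2 pairs with at most 4 genes between.

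In transport and metal binding, ACA.l (AT1G13210), a P-type ATPase of the membrane, had 497 and 325 at 1 h, 219 and 160 at 0 h, then 39.0 and 84.3 at 14 h. AT5G52760 and AT5G60800 carry heavy metal-associated domains. AT5G52760 had 655 and 568 at 1 h, then 87.5 and 186 at 16 h, and AT5G60800 had 184 and 397 at 1 h, then 49.5 and 80.1 at 20 h. CHL (AT3G47860), the chloroplast lipocalin that protects thylakoid lipids, was high from 20 h to 1 h rather than at 1 h alone. Its values were 754 and 658 at 20 h, 804 and 744 at 24 h, 696 and 772 at 0 h, then 798 and 809 at 1 h, against 259 and 151 at 14 h. The histone H2B gene AT2G37470 had 140 and 146 at 1 h, then 43.3 and 49.5 at 12 h. In protein turnover, AT3G18930, a RING finger protein, had 128 and 147 at 1 h, then 22.5 and 36.8 at 13 h, and AT3G59080, an aspartyl protease, had 131 and 108 at 1 h, against 34.2 and 39.5 at 0 h.

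The 19 other named members had no role used here for grouping. AT1G32920 had 777 and 615 at 1 h, 142 and 174 at 0 h, then 53.2 and 141 at 14 h. For AT3G57450 the values were 807 and 741 at 1 h, then 410 and 740 at 13 h, so that in series 2 both hours were level. AT3G04640 had 582 and 287 at 1 h, against 51.2 and 110 at 0 h, and AT2G25735 had 365 and 155 at 1 h, against 52.1 and 23.2 at 0 h. In both genes the 1 h array of series 1 was far above that of series 2, and both lay above the 0 h arrays. AT4G38550, one of 4 members on a probe set that can match several transcripts, had 1046 and 878 at 1 h, against 394 and 347 at 0 h. AT1G25400 had 136 and 197 at 1 h, 19.0 and 39.3 at 0 h, then 4.5 and 35.8 at 16 h.

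Several unnamed members had ranges as large as the named ones. The probe set 247013_at had 1062 and 936 at 1 h, 289 and 265 at 0 h, then 66.2 and 96.3 at 13 h. In 248676_at the values were 24.6 and 19.3 at 0 h, 314 and 210 at 1 h, then 12.2 and 21 at 2 h, which was 6.34% of the 1 h mean and the lowest share of all members. Its 0 h and 2 h arrays lay below the highest bacterial control. After 2 h it was higher again, with 69.5 and 115 at 4 h, and 155 and 51.9 at 14 h. In 246114_at the series differed in level, with 1692 and 496 at 1 h, 1469 and 493 at 2 h, 1170 and 407 at 12 h, against 143 and 41.7 at 0 h.

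From 12 h to 13 h the members went in different directions. At 13 h 36 (40%) were lower than at 12 h by any amount in both series, beside 33.4% of all 10482 probe sets, and 31 (34.4%) were higher in both, beside 27.8%. These shares lay near those of all probe sets. At least 2-fold lower in both series were 13 members (14.4%), beside 1.88% of all 10482 probe sets. At least 2-fold higher in both series were 4 members (4.44%), beside 1.71% of all. The median member differed by 0.10 on the log2 scale and the median of all probe sets by -0.04. Both hours entered the range that chose the members, so these shares are given without a test. From series 1 alone 21 members were at least 2-fold lower (3.26% of all probe sets) and 7 higher (2.78% of all). From series 2 alone 18 were lower (5.11% of all) and 17 higher (6.07% of all).

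Named among the 13 that were lower at 13 h were COR27, AT5G08520, AT5G60680, AT3G10020, AT3G18930, AT1G25550, AT1G27290 and AT2G25200. AT5G60680 had 307 and 184 at 12 h, 45.5 and 30.5 at 13 h, against 373 and 252 at 1 h, a log2 difference from 12 h to 13 h of -2.65 and -2.45. AT1G27290 had 583 and 546 at 12 h, 152 and 224 at 13 h, against 619 and 597 at 1 h. AT2G25200 had 154 and 175 at 12 h, then 55.7 and 66.8 at 13 h, and AT3G10020 had 67.6 and 74.3 at 12 h, then 29.4 and 30.0 at 13 h. In all 4 genes both 13 h arrays lay below both 12 h arrays. AT3G10020 came back to 139 and 83.4 at 20 h. At 12 h the median of the 13 was still only 0.45 below 1 h on the log2 scale, at 13 h it was 2.10 below and at 20 h 0.98 below. The 13 differed among themselves before 13 h: the smallest difference from 1 h at 12 h was -0.11 and the largest -2.33, that of COR27. The unnamed 247524_at was already lower by 12 h, with 157 and 143 at 1 h, 54.8 and 59.8 at 12 h, then 12.0 and 8.3 at 13 h. In 249869_at the values were 142 and 136 at 1 h, 103 and 98.1 at 12 h, then 43.3 and 35.1 at 13 h.

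The 4 that were higher at 13 h were EXO, ATPMEPCRB, 264704_at and 251192_at. In 251192_at the values were 166 and 196 at 1 h, 62.5 and 77.2 at 12 h, 161 and 189 at 13 h, then 50.0 and 56.5 at 14 h. In 264704_at they were 155 and 280 at 1 h, 57.2 and 57.6 at 12 h, then 148 and 145 at 13 h. As in EXO, both arrays at 13 h exceeded both at 12 h and both at 14 h. The median of these 4 at 13 h was 0.30 below 1 h on the log2 scale and at 12 h 2.03 below. At the 13 h arrays the actin ratio was 1.65 and 2.5, within the range of the other hours, and the part of RNA quality here was not tested.

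**Figure D4:**
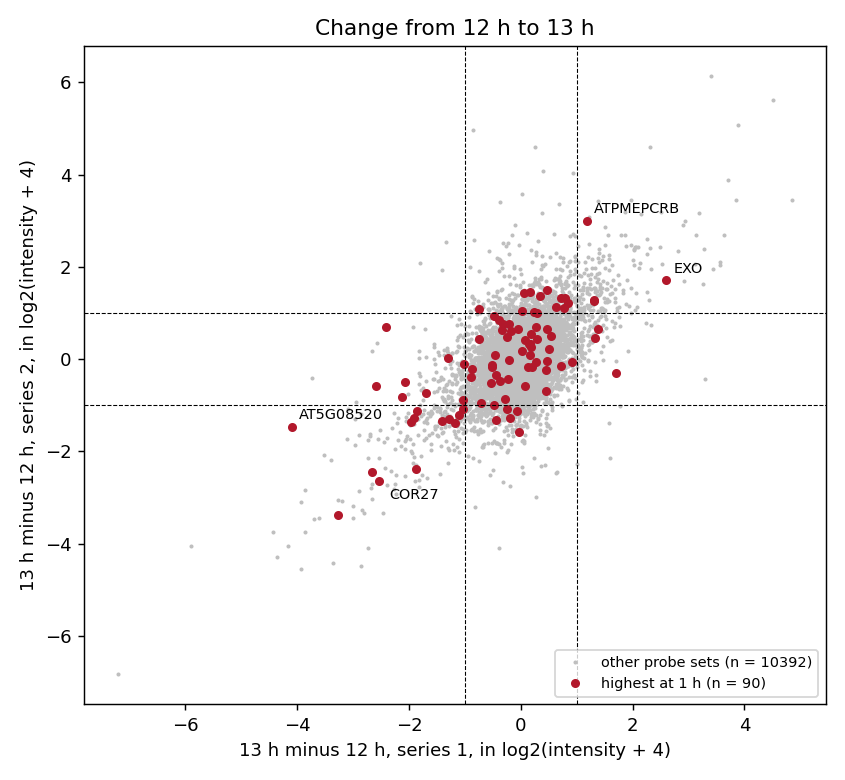
Each point is a probe set, with its difference between 13 h and 12 h in log2(intensity + 4) in series 1 on the horizontal axis and in series 2 on the vertical axis. Red points are the 90 members and grey points the other 10392, and dashed lines mark a 2-fold difference. Of the members 13 lay beyond both lines in the lower left and 4 in the upper right.

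By role, the members at least 2-fold lower at 13 h than at 12 h in both series were 2 of the 6 transcription factors, COR27, 1 of the 2 protein turnover genes and 4 of the 19 other named members. Those at least 2-fold higher and named were 2 of the 5 growth and cell wall genes. Over all members 14.4% were lower and 4.44% higher, beside 1.88% and 1.71% of all 10482 probe sets. The counts by role are over few genes and were not tested.

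Of the 144 genes in the lists chosen for this set, 27 had a named probe set and 19 were kept at a mean of 50. Members made up 3 of these 19 (15.8%), beside 0.859% of all 10482 probe sets kept, and as the lists were chosen with results known, nothing is read from these shares. Of the 8 EXORDIUM genes only EXO had a named probe set, and of the 23 clock genes 4 had one, among them COR27. Among the 16 early response genes of touch, cold and wounding 2 had one, WRKY53 and ZAT10. All of these were kept, and genes without a named probe set could not be read. ZAT10, a zinc finger repressor and no member, was at 312 and 224 at 1 h, then 489 and 136 at 12 h. Of 4 kept genes of darkness and low sugar, none was a member and 1 was at least 2-fold higher at 1 h than at 0 and 24 h in both series. This was ATG8E, a gene of autophagy, with 463 and 327 at 1 h, 79.4 and 101 at 0 h, then 338 and 356 at 4 h. By that rule 2.4% of all 10482 probe sets were higher. Of 4 kept expansin genes 1 was higher by it and 0 lower, the former being EXLA1, an expansin-like wall protein, with 375 and 215 at 1 h, then 366 and 1124 at 13 h. Smaller decreases at 1 h were seen in EXPA8 (log2 difference of -1.06 and -0.86) and EXPA4 (-0.89 and -0.73). EXLB1 differed by -0.13 and 0.06. XTH27, a xyloglucan endotransglucosylase and the 1 kept gene of its list, was at least 2-fold higher at 1 h by the same rule, with 919 and 763 at 1 h, 305 and 256 at 0 h and a maximum of 1408 and 1128 at 12 h. The leucine zipper gene bZIP53 was highest at 1 h in both series with 393 and 618, but its ranges of 1.14 and 1.39 missed the threshold. IAA29, the 1 listed auxin and phytochrome gene with a named probe set, had 47.7 and 41.3 at 1 h, then 233 and 136 at 20 h.

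In its range and highest hour the rule did not use the difference between 24 h and 0 h, or between the series. Both differences were tested. The filter on mean intensity pooled the series, so the series difference is not free of the selection. In the labels the 0 h and 24 h titles of series 1 share a number and differ by a letter, and the 24 h title of series 2 is marked as a repeat, without further explanation. Both hours were taken as separate samples, as their source names give them. Between 24 h and 0 h, limma called none of the 10482 probe sets at an adjusted p under 0.05 (0%), and so none of the members. At an unadjusted p under 0.05 there were 263 probe sets and 0 members in this fit, which had no replicate term. With the replicate as a block limma gave 562 probe sets and 3 members at that level, and again none after adjustment. The SE values below come from the fit without the block. The median member differed by -0.09 on the log2 scale and all probe sets by 0.01. With each 0 h and 24 h array left out in turn, the median of the members ran from -0.30 to 0.06. Its sign thus depended on single arrays, and no direction is read from it. EXO differed by -0.29 ± 0.59 (SE, n = 2 arrays per hour, limma adjusted p = 1.00) and COR27 by 0.15 ± 0.25 (adjusted p = 1.00). The most negative difference was that of AT3G01830, -1.29 ± 0.82 (SE). With 2 arrays per hour a difference of 1 on the log2 scale was recovered in 61 of 100 simulated cases. The simulated arrays deviated independently, without the shared deviation of a series, so this share need not hold for the members. A change of that size between 0 h and 24 h was not always detectable even in the simulation.

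Levels over the whole day differed between the replicate series. With the 11 hours as pairs, limma called 35 members (38.9%) higher in series 2 and 5 (5.56%) lower, at an adjusted p under 0.05. Over all probe sets 20.5% were higher and 16.6% lower. All of these, members included, had passed a filter on the mean of both series together. The calls are thus not free of that selection. The median member was 0.29 higher in series 2 on the log2 scale, and the median of all probe sets 0.02. Series 2 also had the higher actin ratios, with a median of 2.62 over the hours other than 1 h against 1.71 in series 1, and the part of RNA quality in the difference was not tested.

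The members with a higher level in series 2 included AT1G13470 with a difference of 1.10 ± 0.14 (SE, n = 11 pairs), higher at 11 of 11 hours (limma adjusted p = 4.2e-05). AT5G60800 differed by 1.04 ± 0.10 and AT2G15042 by 0.99 ± 0.15, each higher at all 11 hours. In AT2G15042 the series 1 arrays alone had a mean below 50, so it passed the filter only through series 2. The same held for AGL24 and AT1G25400, which were also called higher in series 2. Their higher level in series 2 is thus in part what admitted them. EXO was higher by 0.70 ± 0.17 at 9 of 11 hours (adjusted p = 0.0053) and WRKY53 by 0.62 ± 0.09 at 11 of 11. For EXO 5 arrays lay at or below the highest bacterial control. Where EXO was high the series were close, with 915 and 908 at 1 h and 827 and 859 at 13 h. AT5G61590 was higher by 0.60 ± 0.21 (adjusted p = 0.036), and its call was lost when the pair at 8, 12, 13, 14 or 16 h was left out, with values from 0.42 without the 13 h pair to 0.62 without the 12 h pair and adjusted p from 0.051 to 0.079. With no filter on low values it was 0.60 (adjusted p = 0.054). AT3G01830, higher by 0.80 ± 0.28, lost its call without the pair at 0, 8, 14, 16, 20 or 24 h, with values from 0.66 to 0.81, and also without the filter and with a pseudocount of 40 (0.36). The fitted difference of the unnamed 244990_s_at was 2.06 ± 0.23, with 11.1 and 99.2 at 0 h, then 70.4 and 162 at 1 h. As 9 of its 11 arrays in series 1 lay below the highest bacterial control, its size depends on the pseudocount, and it was 1.13 with a pseudocount of 40. This probe set also passed the filter of a mean of at least 50 only through its series 2 values. Lower in series 2 were AT1G25550 with a difference of -0.65 ± 0.09, AT5G60680 with -0.47 ± 0.09, AT5G46710 with -0.40 ± 0.09, and the unnamed 246114_at with -1.01 ± 0.17 and 263669_at with -0.32 ± 0.06. Of these 5, AT5G46710 and 263669_at were lower at all 11 hours.

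**Figure D5:**
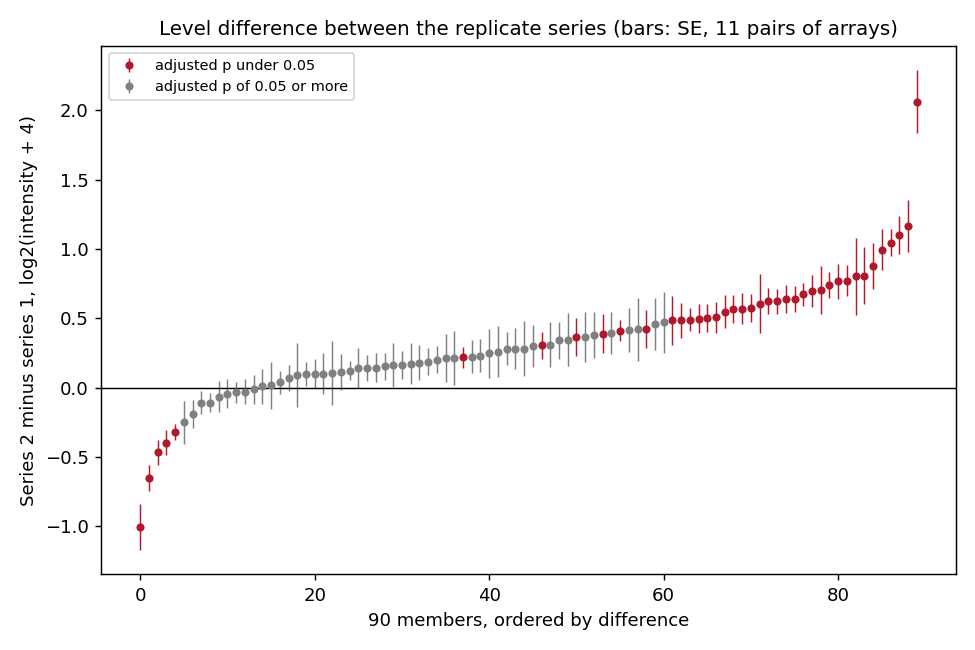
Points are the 90 members in order of their difference between the replicate series (series 2 minus series 1, in log2(intensity + 4)), with bars of 1 SE over 11 pairs of arrays. Red marks an adjusted p under 0.05 from limma: 35 members were higher in series 2 and 5 lower. The highest point, at 2.06, is 244990_s_at, with 9 of 11 series 1 arrays below the highest bacterial control and a difference of 1.13 with a pseudocount of 40. It passed the filter on mean intensity only through its series 2 values.

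The difference between the series was not the same at every hour. At 1 h the median member was 0.09 lower in series 2 and 39 of 90 were higher there, and at 2 h the median difference was 0.07. At 16 h it was 0.65 with 79 members higher, at 14 h 0.53 with 71 and at 4 h 0.46 with 73. The median of all probe sets stayed between -0.03 and 0.04 at every hour. The members' range over the day was correspondingly larger in series 1, with a median of 2.47 against 1.89, for 73 of the 90. Of the 732 other probe sets with a shared highest hour, 437 (59.7%) had the larger range in series 1. The rule used these ranges, so this is a description.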

How the data were processed

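The authors deposited 1 table of linear probe set intensity values with a column for each of the 22 arrays, and from the values each array had been scaled by the authors to a mean of 100 without the lowest and highest 2%. Which software made them is not stated in the sources used here. Of 22810 probe sets 64 controls were left out. Hours came from the source names and series from the replicate numbers in the labels. Values were used as log2(intensity + 4), on which differences of low genes are understated. Probe sets with a mean of at least 50 were tested with limma 3.58.1 in R 4.3.3 (lmFit, eBayes with a trend), two-sided, with Benjamini-Hochberg adjustment over all 10482. For 24 h against 0 h, all 22 arrays gave 11 hour means. For series 2 against series 1 the hour was a block. Everything else is a description with no test. The call of at least 2-fold was made on the log2 scale in both series.

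Same-numbered replicates deviated together: the correlation of the series difference over 55 pairs of hours ran from 0.118 to 0.669 (median 0.43), all above 0.1. On simulated data with 10482 probe sets, the 24 h against 0 h test recovered 61 of 100 changes of 1 and 91 of 100 of 2 on the log2 scale, and the series test 96 and 99. The simulated arrays deviated independently of each other, unlike the real replicates. The number of arrays limits the precision. Replicates are labelled biological, each a pool of 20 plants.

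The members, lists and rules were chosen with earlier results of these data known. Named were members with 1 annotated gene, in the lists, with the 15 largest ranges, the 10 highest 1 h levels, the 10 largest differences each way at 13 h, nearest the threshold, passing a test or with a known role. Unnamed members were picked by the same rule, except 247651_at, 261167_at and 249869_at, which were singled out after their values were seen. Symbols and gene order came from the RefSeq table of TAIR10.1. Promoter sequence was not analysed here.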

Additional observations from a re-analysis of the deposited data

How the results depend on the processing

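The number of members depended on the rule: 90 became 40 with a pseudocount of 40, 177 with a range of at least 1, 30 with at least 2, 56 with a mean of at least 100, 282 in series 1 alone and 168 in series 2 alone. With quantile normalization it was 92 (83 shared), with equal array medians 77 (72 shared), with the hours of the age tags 84 (83 shared), and without the 8 h and 16 h arrays, an alternative chosen after seeing the data, 94 (87 shared). For 24 h against 0 h, 0 probe sets were called by limma under every alternative run, also with the replicate block for the pairing (0, and 562 at an unadjusted p under 0.05), and 0 without each 0 h and 24 h array in turn. For the series, 1355 probe sets were higher with a mean of at least 100, 2943 lower with no filter, and 22 members higher with a mean of at least 100, where 56 members were tested. Leaving out each pair of arrays gave 1909 to 2099 higher and 1441 to 1675 lower probe sets, 29 to 41 higher and 5 to 6 lower members. Of the 40 members called, 32 kept the call under every alternative, and 65 of 746 recomputed values lost it with 0 reversed. From 12 h to 13 h, the 13 lower members became 5 with a pseudocount of 40, 18 without replicate 1, 21 without replicate 2, and 6 among members above the bacterial controls on every array, chosen after seeing the data. The 4 higher became 1, 17, 7 and 2. The causes were not tested. Signal over background limits the low hours: 32 members had an array at or below the highest bacterial control, none of them at 1 h.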
